A study of Mus musculus with 6 samples.

Results

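Glycolysis converts glucose to pyruvate in the cytosol, and its genes, with those of glucose uptake, lactate formation and export, and pyruvate entry into mitochondria, were compared in CD4 T cells of WT mice and mice lacking AMPK in T cells (AMPK KO). The 36 genes were taken by symbol from a list that runs from the glucose transporters to the pyruvate dehydrogenase complex. All 36 were found among the 23282 genes that each library lists, and 35 passed a filter on low values. In T cells, stimulation of the antigen receptor with CD28 turns the cell from oxidative metabolism towards uptake of glucose and release of lactate. The flow is mainly set at glucose entry, at hexokinase and at phosphofructokinase, and the fate of pyruvate is divided between lactate dehydrogenase, which makes lactate and restores NAD+, and the pyruvate dehydrogenase complex, which feeds the citric acid cycle. AMPK, the energy sensor of the cell, is known to act on several of these steps, among them the phosphorylation of PFKFB enzymes and the removal of TXNIP, an inhibitor of glucose transport.

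WT cells came from Prkaa1 fl/fl mice without CD4Cre, and AMPK KO cells from Prkaa1 fl/fl mice that carry CD4Cre, with 3 samples in each group. Both groups therefore carry the floxed allele of Prkaa1, which encodes the catalytic α1 subunit of AMPK, on a C57BL/6 background, and the mice were 6 to 8 weeks old per the methods. The Cd4 promoter that drives Cre is also active in thymocytes that go on to become CD8 T cells, so the deletion is not limited to CD4 T cells. Cells were taken from spleen and lymph nodes, rested for 1 h and then activated through CD3 and CD28 by antibodies at 2 µg/mL each. The labels give 24 h of stimulation, whereas the methods give 6 h. The samples of each group are described as biologically independent, and the labels do not say whether each came from its own mouse. RNA was read from its 3′ ends with the Lexogen QuantSeq method, which gives about 1 read per transcript copy whatever its length, so levels of different genes are set side by side below without a correction for length. Values are log2 of normalised read counts scaled for depth (CPM) plus 1, unless a share or a summed CPM is named.

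Reads assigned to genes numbered 9575096 to 10168121 per WT library and 10515155 to 11185360 per AMPK KO library. Rn45s, the precursor of ribosomal RNA, took 20.7% to 24.9% of a WT library and 8.48% to 10.8% of an AMPK KO library. Prkaa1 had log2 values of 4.64, 5.24 and 4.86 in WT and 4.08, 4.72 and 4.67 in AMPK KO. These groups overlapped, and the log2 difference was -0.43 (SE 0.25, adjusted p = 0.357 in limma), from 188 to 369 reads per library. Reads of the 3′ end check the deletion only if it reaches that end, and the sources used here do not give the deleted part. The cells are labelled CD4 T cells, and Cd4 lay at 6.53 to 6.83 in WT and 6.14 to 6.55 in AMPK KO, yet Cd8a lay as high, at 6.48 to 6.86 and 6.95 to 7.08. Xist, the RNA of the inactive X chromosome, was counted 8 to 32 times per WT library and 1998 to 2876 times per AMPK KO library, although the methods give female mice for the study. Ddx3y on the Y chromosome was counted 3158 to 3462 times per WT library and 1296 to 1840 times per AMPK KO library, so sex-linked transcripts separated the groups. This difference coincides with genotype in all 6 libraries, so the parts of sex and genotype in any member, Ldha included, cannot be told apart.

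Among the 35 tested members, only Ldha, the A chain of lactate dehydrogenase, passed the threshold of an adjusted p of 0.05, and it was higher in AMPK KO. This count of 1 is 2.86% of the members, whereas 5.65% of all 11279 tested genes passed in either direction, 2.54% as higher and 3.10% as lower. The means of 23 members were higher in AMPK KO and those of 12 were lower. The median log2 difference was 0.31 over the members and 0.015 over all tested genes. In 10 members every AMPK KO value lay above every WT value, and in none did every AMPK KO value lie below. These 10 are 28.6% of the members, against 11.6% of all tested genes, while 25.6% of all tested genes did not overlap in either direction and 14.0% lay lower. At an unadjusted p of 0.05, 8 members (22.9%) passed and all were higher, against 10.6% of all tested genes as higher and 21.3% in either direction, and of these only Ldha passed after adjustment. These 8 were Slc2a1, Hk2, Hk3, Aldoa, Tpi1, Ldha, Pdhb and Mpc2. Hk3, Aldoc and Eno2 passed the filter on low values only through their AMPK KO values, which favours a higher direction, so their counts are no evidence of one. Without these 3, the means of 20 of 32 members were higher, with a median log2 difference of 0.22, 9 did not overlap and 7 passed at an unadjusted p of 0.05. The 8 fall at glucose uptake, hexokinase, the aldolase and triose phosphate steps, lactate formation and pyruvate entry.

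**Figure D1:**
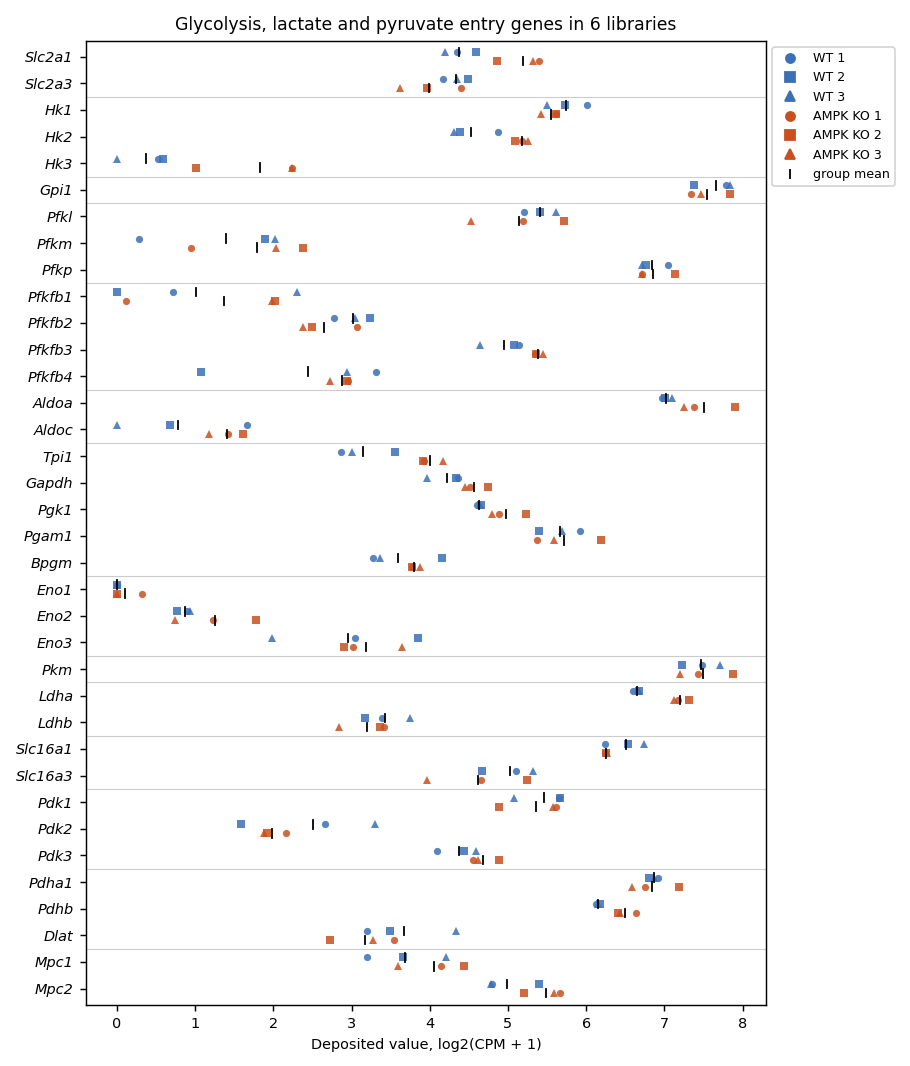
Deposited values of the 36 members in the 6 libraries, as log2(CPM + 1) on the horizontal axis, in the order of the pathway from glucose uptake at the top to pyruvate entry at the bottom. Blue points are WT, orange points are AMPK KO, the shape gives the replicate, and short black lines are group means; for Ldha the WT points lie between 6.60 and 6.68 and the AMPK KO points between 7.12 and 7.31.

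The promoters of Ldha, Slc2a1 and Hk2 are shown because these genes stand at lactate formation, glucose entry and glucose phosphorylation, and in each of them no AMPK KO value overlapped the WT values. Each sequence holds the 250 bases before a start of transcription in RefSeq (GRCm38.p6, the mm10 assembly), read 5′ to 3′ on the strand of the gene. Capitals mark the letters CACGTG, which is the E-box bound by MYC and related factors, and ACGTG or GCGTG on either strand, the core of the element bound by hypoxia-inducible factors. CACGTG contains ACGTG, so an E-box counts for both. Ldha is on the plus strand at chr7:46845554-46845803 and has 2 starts in RefSeq, of which the upstream one is shown. GENCODE M21 gives Ldha an earlier outermost start, at 46841475, so this window lies inside the span of the gene given below. Slc2a1 is on the plus strand at chr4:119108495-119108744, and Hk2 is on the minus strand at chr6:82774455-82774704.
Ldha: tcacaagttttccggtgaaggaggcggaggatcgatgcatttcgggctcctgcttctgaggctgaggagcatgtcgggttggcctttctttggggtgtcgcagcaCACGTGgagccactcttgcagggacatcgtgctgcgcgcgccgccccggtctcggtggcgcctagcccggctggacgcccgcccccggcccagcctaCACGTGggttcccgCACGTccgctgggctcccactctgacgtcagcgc
Slc2a1: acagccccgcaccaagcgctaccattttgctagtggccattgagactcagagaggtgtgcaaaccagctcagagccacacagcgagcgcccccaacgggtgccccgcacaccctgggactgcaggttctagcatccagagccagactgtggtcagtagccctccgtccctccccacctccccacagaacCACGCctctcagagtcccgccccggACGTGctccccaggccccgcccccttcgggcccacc
Hk2: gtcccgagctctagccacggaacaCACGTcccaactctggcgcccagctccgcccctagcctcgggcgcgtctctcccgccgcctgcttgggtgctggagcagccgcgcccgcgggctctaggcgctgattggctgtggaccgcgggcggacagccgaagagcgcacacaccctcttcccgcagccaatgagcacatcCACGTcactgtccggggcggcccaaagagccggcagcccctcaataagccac

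The Ldha window held CACGTG at 145 and 48 bases before the start and a further ACGTG on the opposite strand at 34. The Slc2a1 window held ACGTG at 36 bases and GCGTG on the opposite strand at 61, and the Hk2 window held ACGTG on the opposite strand at 52 and 226. Over windows of 300 bases that reach 50 bases past the start, 35 of the 36 members had a promoter in the table, with 55 promoters among them. CACGTG was found in 6 of these 55 (10.9%), against 7.15% of 32851 promoters of all genes. ACGTG or GCGTG was found in 40 of the 55 (72.7%), against 43.8% of all promoters. Windows with 2 or more CACGTG made up 0.594% of all promoters, and among the members only that of Ldha was one. Each of these motifs contains the letters CG, and the promoters of all genes were not matched to the members in base composition or expression. These are counts of letters, and binding was not measured.

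Glucose uptake rests on the transporters Slc2a1 (GLUT1), which T cells raise on activation, and Slc2a3 (GLUT3), which has a high affinity for glucose. Slc2a1 had log2 values of 4.34, 4.60 and 4.19 in WT and 5.39, 4.86 and 5.33 in AMPK KO. Every AMPK KO library lay above every WT library, and the lowest of them was AMPK KO 2. The log2 difference of Slc2a1 was 0.82 (SE 0.23, 95% interval 0.32 to 1.31), or 1.76-fold, with an adjusted p of 0.0521 in limma, just outside the threshold. With a library left out the difference ranged from 0.72 to 0.98, and the adjusted p from 0.0119 (without AMPK KO 2) to 0.242 (without AMPK KO 1). It passed without AMPK KO 2 or WT 2 and in none of the other 4 cases. Slc2a3 had log2 values of 4.17, 4.49 and 4.35 in WT and 4.40, 3.96 and 3.62 in AMPK KO. Its groups overlapped, and its log2 difference was -0.34 (95% interval -0.92 to 0.24, adjusted p = 0.505 in limma).

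The share of each form in its family was compared in all families with several members, since scaling between libraries has no part in a share. In every family a share restates the values of its genes on another scale and is no further evidence. Slc2a1 made up 53.1%, 52.0% and 47.2% of the summed CPM of both transporters in WT, and 67.1%, 65.8% and 77.6% in AMPK KO. The mean share was 50.8% ± 3.13 in WT and 70.2% ± 6.48 in AMPK KO (SD, n = 3 in each group), a difference of 19.4 percentage points. The groups did not overlap, which gives 0.1 in the exact two-sided permutation test, the smallest p possible with 3 against 3, and 0.329 after adjustment over the 23 shares compared in 9 families.

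Hexokinase traps glucose in the cell as glucose-6-phosphate. Hk1 is the form present in most cells, Hk2 is the form induced in activated and proliferating cells, and Hk3 is found mainly in myeloid cells. Hk2 had log2 values of 4.88, 4.39 and 4.30 in WT and 5.17, 5.09 and 5.26 in AMPK KO. No value overlapped, and the log2 difference of 0.65 (SE 0.22, 95% interval 0.17 to 1.13) had an adjusted p of 0.105 in limma. Hk1 ranged from 5.50 to 6.01 in WT and from 5.42 to 5.62 in AMPK KO, with a log2 difference of -0.20 (adjusted p = 0.592 in limma). The share of Hk2 in the summed CPM of the hexokinases was 30.8%, 27.5% and 29.7% in WT and 40.4%, 40.5% and 45.1% in AMPK KO. The share of Hk1 was 70.2% ± 1.53 in WT and 54.7% ± 3.97 in AMPK KO (SD, n = 3 in each group). Hk2 was thus the second form after Hk1 in every library, but held a larger share in every AMPK KO library than in any WT library. The summed CPM of the hexokinases overlapped between the groups, at 63.1 to 92.2 in WT and 82.0 to 87.0 in AMPK KO.

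**Figure D2:**
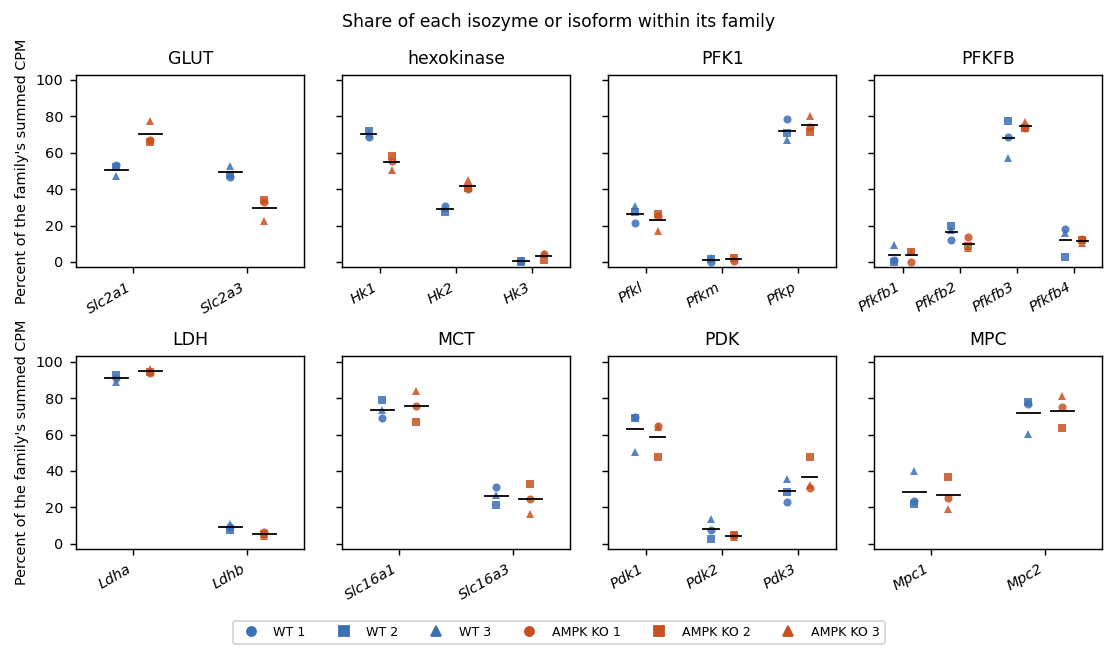
Share of each gene in the summed CPM of its family, in percent, for 8 families, with 1 point per library and a line at the mean of each group; the left of each pair is WT (blue) and the right is AMPK KO (orange). The groups separate for glucose transporters (GLUT), hexokinases and lactate dehydrogenases (LDH), while phosphofructokinase-1 (PFK1), PFKFB, lactate transporters (MCT), pyruvate dehydrogenase kinases (PDK) and pyruvate carrier subunits (MPC) overlap.

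Hk3 was rare, with 4, 5 and 0 reads in the WT libraries and 44, 11 and 44 in the AMPK KO libraries. Its log2 values were 0.52, 0.58 and 0.00 in WT and 2.24, 1.02 and 2.23 in AMPK KO, and only the latter took its mean over the filter, so it had to differ to be tested. All AMPK KO libraries lay above the WT libraries, and the log2 difference of 1.46 (SE 0.49) had an adjusted p of 0.0930 in limma. On the scale with 1 added, such a low gene has its change understated, and on recovered reads the difference was 3.36 (adjusted p = 0.120 in limma). Markers of macrophages and monocytes were also higher in AMPK KO. Of 20 such markers, 18 were tested, all 18 had higher means and 11 passed the threshold. Of all tested genes, 51.2% had higher means and 2.54% passed as higher. The summed CPM of the 20 markers was 769 to 836 in WT and 1342 to 2477 in AMPK KO. None of the 20 was at 0 in all libraries, and Csf1r, the growth factor receptor that defines these cells, had log2 values of 7.65, 7.21 and 7.49 in WT and 8.32, 9.01 and 7.94 in AMPK KO. The part of these cells in the values of Hk3 or of any other member was not tested, and in bulk RNA a change in the number of cells of a type and a change in RNA per cell cannot be told apart.

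Gpi1, which turns glucose-6-phosphate into fructose-6-phosphate, had the highest counted mean over the 6 libraries, though not the highest value in each. It lay at 7.37 to 7.84 in WT and 7.34 to 7.84 in AMPK KO. Gapdh and Eno1 share most of their 3′ ends with other genes, as given below, and could not be ranked. Phosphofructokinase-1 commits the sugar to glycolysis, and its platelet-type subunit Pfkp was the main form, with 72.2% ± 5.70 of the family in WT and 75.3% ± 4.63 in AMPK KO (SD, n = 3 in each group). Pfkp had log2 values of 7.04, 6.77 and 6.71 in WT and 6.72, 7.14 and 6.71 in AMPK KO. The groups lay over each other, with a log2 difference of 0.015 (95% interval -0.34 to 0.37, adjusted p = 0.971 in limma). The direction of so small a difference turned under scaling outside Rn45s and under a correction for GC content. Pfkl, the liver-type subunit, ranged from 4.53 to 5.72 and Pfkm, the muscle-type subunit, from 0.28 to 2.38, both with overlapping groups. None of the 3 genes of this committing step showed a change past the threshold. The whole 3′ end of Pfkp lies in a gene on the opposite strand, as given below. Its level, share and difference are therefore uncertain, and so is the result for this step.

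The PFKFB enzymes make and remove fructose-2,6-bisphosphate, the activator of phosphofructokinase-1, and Pfkfb3 is the form with the strongest balance towards synthesis. Pfkfb3 had log2 values of 5.14, 5.08 and 4.64 in WT and 5.35, 5.36 and 5.45 in AMPK KO. The groups did not overlap but lay close, and the log2 difference of 0.43 had a 95% interval of -0.0047 to 0.87 and an adjusted p of 0.239 in limma. The other forms were rarer: Pfkfb2 ranged from 2.38 to 3.23, Pfkfb4 from 1.07 to 3.31 and Pfkfb1 from 0.00 to 2.31. Pfkfb4 was low in WT 2 alone, with 11 reads against 59 to 82 in the other libraries. The summed CPM of the PFKFB genes was 44.6 ± 4.35 in WT and 54.7 ± 0.682 in AMPK KO (SD, n = 3 in each group), without overlap (exact permutation p = 0.1, the smallest possible).

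Aldolase splits fructose-1,6-bisphosphate into the triose phosphates, and Aldoa held 98.3% to 100% of the aldolase CPM in every library. Aldoa had log2 values of 6.97, 7.01 and 7.09 in WT and 7.37, 7.90 and 7.25 in AMPK KO. The groups did not overlap, and AMPK KO 2 stood highest. The log2 difference of Aldoa was 0.48 (SE 0.17, 95% interval 0.12 to 0.85, adjusted p = 0.116 in limma), and it was 0.29 without AMPK KO 2. Tpi1, which interconverts the triose phosphates, had log2 values of 2.87, 3.56 and 3.002 in WT and 3.92, 3.91 and 4.17 in AMPK KO. It did not overlap either, and its log2 difference of 0.86 (SE 0.30, 95% interval 0.21 to 1.51), or 1.81-fold, was the largest after Hk3, with an adjusted p of 0.114 in limma.

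The steps from the triose phosphates to phosphoenolpyruvate gave smaller differences. Gapdh, which makes the first NADH of the pathway, had log2 values of 4.36, 4.34 and 3.96 in WT and 4.51, 4.74 and 4.46 in AMPK KO. Pgk1, which yields the first ATP, had log2 values of 4.61, 4.65 and 4.64 in WT and 4.89, 5.24 and 4.79 in AMPK KO. Both were without overlap, yet neither difference was past the threshold, with 0.35 (95% interval -0.16 to 0.86, adjusted p = 0.434 in limma) for Gapdh and 0.34 (95% interval -0.12 to 0.80, adjusted p = 0.392 in limma) for Pgk1. Pgk1 is X-linked, as are Pdha1, Pdk3 and Pfkfb1. The groups differed in Xist as given above, and its part in these or other members was not tested. Of the X-linked members, Pgk1 and Pdk3 were higher in mean, by 0.34 and 0.31, Pfkfb1 by 0.36 from 0 to 35 reads, and Pdha1 differed by -0.027. Pgam1, a phosphoglycerate mutase, ranged from 5.37 to 6.20 and Bpgm, which makes 2,3-bisphosphoglycerate, from 3.27 to 4.16, with overlapping groups.

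The enolase step could be followed only in part. Eno1, the main enolase of lymphocytes, was listed with 3 reads in AMPK KO 1 and with 0 in every other library, and it was the member that did not pass the filter. Of the 500 bases at its 3′ end, 68 of 91 windows of 50 bases also occur in its near copy Eno1b. Eno1b was listed on 2 lines, with 3.34 to 4.17 in WT and 3.66 to 4.16 in AMPK KO on the first, and 3.35 to 4.15 and 3.82 to 4.36 on the second. Neither line passed the threshold (log2 differences of 0.24 and 0.44, adjusted p = 0.693 and 0.432 in limma), and the 0 of Eno1 is no measure of its expression. Eno2, the neuronal form, had 7 to 26 reads, and Eno3, the muscle form, had 26 to 137, both with overlapping groups.

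Sequence shared with other genes bears on other members as well. Of the 36 members, 26 had no window of the transcript end in another gene, against 78.0% of 10831 tested genes with an annotated transcript. At least 50% of the windows were shared in 3 members, Pfkp, Gapdh and Eno1, and in 9.38% of those 10831 genes. Gapdh shared 90.1% of its windows with 133 genes, of which 124 are pseudogenes. Its level of 3.96 to 4.74 lay well below that of Aldoa and is uncertain for that reason. All windows of Pfkp lie in Pitrm1 on the opposite strand, and the strand setting of the counting is not given in the sources used here. The level of Pfkp, its share of the family and its rank among the members are therefore uncertain as well. Ldha, Slc2a1, Hk2, Tpi1 and Pkm shared no window, although Slc2a1, Hk2 and Tpi1 overlap genes annotated on the other strand.

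**Figure D3:**
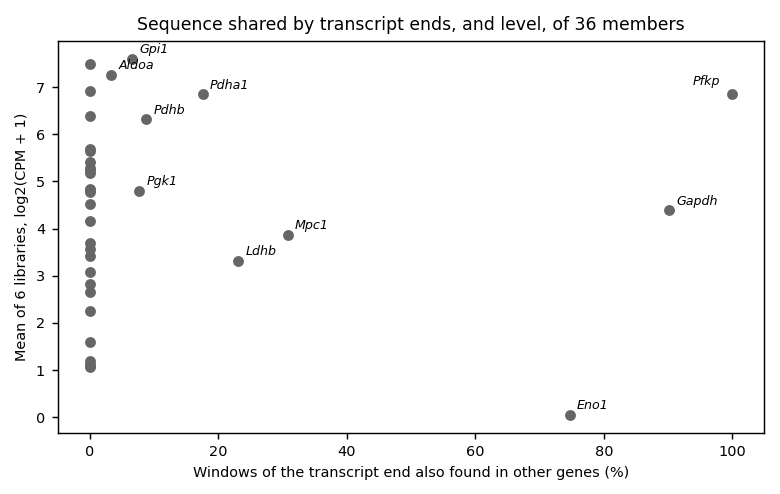
Share of 50-base windows of the last 500 transcript bases that also occur in other genes, in percent, against the mean of the 6 libraries, log2(CPM + 1), with 1 point for each of the 36 members. Members with no shared window stand at 0; Pfkp at 100%, Gapdh at 90.1% and Eno1 at 74.7% are the highest.

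Pkm, which encodes pyruvate kinase of the muscle and proliferating-cell type, makes pyruvate and ATP. Pkm had log2 values of 7.48, 7.22 and 7.71 in WT and 7.43, 7.87 and 7.20 in AMPK KO. The groups overlapped throughout, with a log2 difference of 0.029 (95% interval -0.36 to 0.42, adjusted p = 0.951 in limma), from 1481 to 2509 reads. This interval limits a rise or fall to 1.34-fold and 0.777-fold. Reads of the 3′ end do not tell its M1 and M2 splice forms apart.

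At the pyruvate branch, Ldha rose. Ldha (chr7:46841475-46855627, plus strand, GRCm38) had log2 values of 6.60, 6.68 and 6.67 in WT and 7.18, 7.31 and 7.12 in AMPK KO. The WT values lay close together and every AMPK KO value stood clear of them, from 887 to 1012 reads per WT library and 1647 to 1706 per AMPK KO library. The group means of 6.65 ± 0.0403 and 7.20 ± 0.0956 (SD, n = 3 each) stood apart, and the log2 difference was 0.56 (SE 0.14, 95% interval 0.25 to 0.86), or 1.47-fold (95% interval 1.19 to 1.82), with an adjusted p of 0.0357 in limma. The difference ranged from 0.49 to 0.62 over 16 other settings and kept its direction in each. The adjusted p ranged from 0.0213 to 0.158 over those settings and passed in 8 of them. Leaving out any library other than AMPK KO 2 took the adjusted p to 0.0528 or above.

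**Figure D4:**
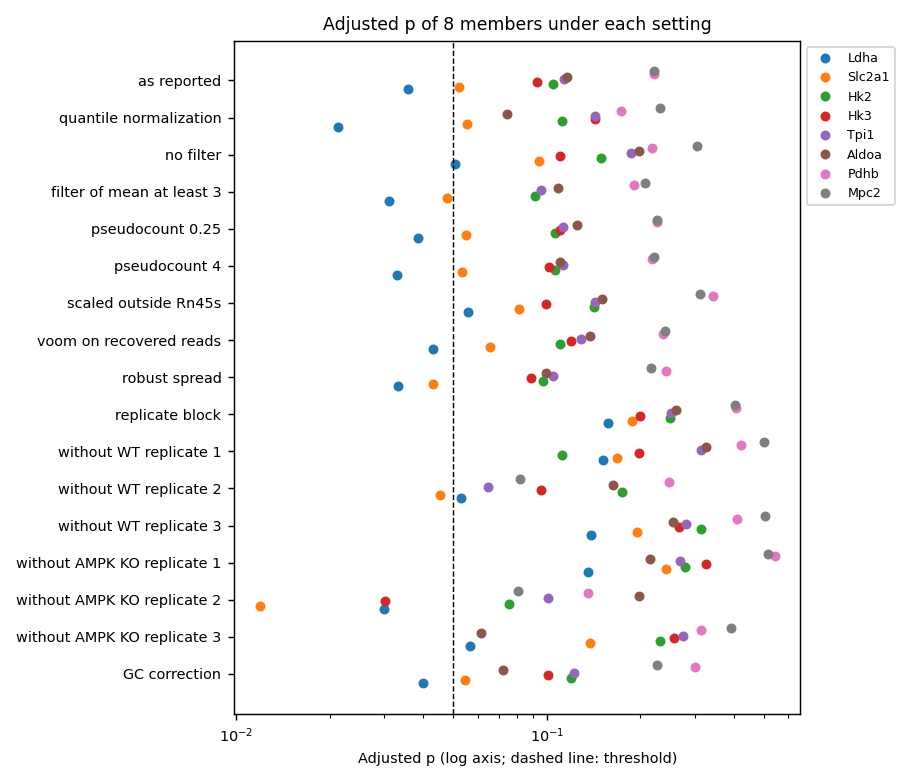
Adjusted p in limma, on a log axis, of the 8 members with an unadjusted p under 0.05, as reported and under 16 other settings (15 for Hk3, which does not pass the filter of 3), with 1 colour per gene and a dashed line at the threshold of 0.05. Ldha lies left of the line in 8 of the 16 other settings and Slc2a1 in 4.

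Ldhb, whose chain favours the reaction from lactate back to pyruvate, had log2 values of 3.17 to 3.75 in WT and 2.84 to 3.41 in AMPK KO. Its log2 difference was -0.23 (95% interval -0.92 to 0.46, adjusted p = 0.730 in limma), from 73 to 114 reads. The ratio of Ldha to Ldhb was 10.2, 12.7 and 8.10 in WT and 14.96, 16.9 and 22.6 in AMPK KO. The groups did not overlap, with means of 10.3 ± 2.28 and 18.1 ± 3.94 (SD, n = 3 each) and an exact permutation p of 0.1, the smallest possible. The ratio restates the values of both genes and is no further evidence. As a share of both chains, Ldha had a permutation p of 0.329 after adjustment over the 23 shares compared. A pseudogene shares 23.1% of the windows of Ldhb. Together both chains summed to 109 ± 3.77 CPM in WT and 155 ± 11.3 CPM in AMPK KO (SD, n = 3 in each group).

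Lactate leaves the cell through the transporters Slc16a1 (MCT1) and Slc16a3 (MCT4), and neither followed Ldha. Slc16a1 lay at 6.24 to 6.74 in WT and 6.24 to 6.27 in AMPK KO, with a log2 difference of -0.25 (adjusted p = 0.421 in limma). Slc16a3, the form suited to export, had log2 values of 5.11, 4.67 and 5.31 in WT and 4.66, 5.24 and 3.97 in AMPK KO. AMPK KO 2 lay within the WT values, AMPK KO 1 just below them and AMPK KO 3 further below. The log2 difference of Slc16a3 was -0.41 (95% interval -1.04 to 0.23, adjusted p = 0.462 in limma). The summed CPM of both transporters was 123 ± 19.3 in WT and 101 ± 10.7 in AMPK KO (SD, n = 3 in each group), with overlapping groups.

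**Figure D5:**
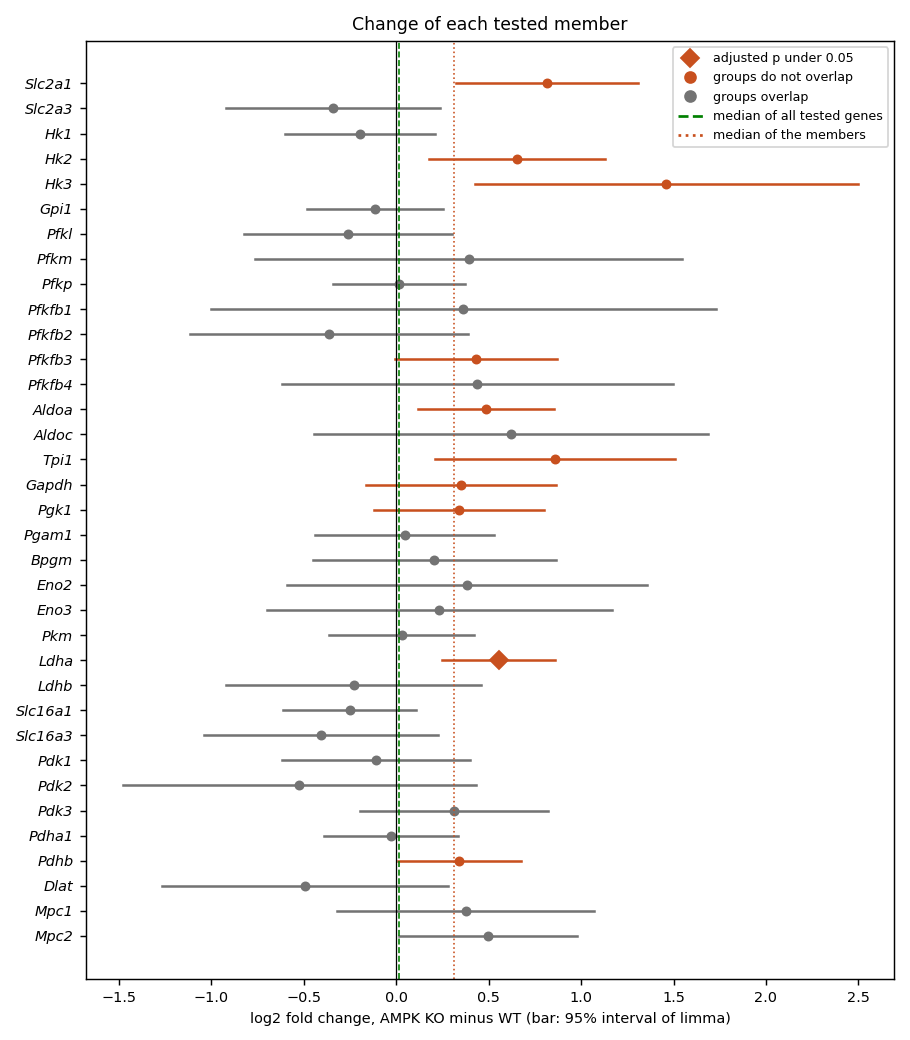
log2 difference of AMPK KO minus WT for the 35 tested members with the 95% interval of limma; the diamond marks Ldha, which passed the threshold, orange points mark members whose groups did not overlap, and grey points mark the rest. The dashed green line is the median of all tested genes at 0.015 and the dotted orange line is the median of the members at 0.31.

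Pyruvate enters mitochondria through the carrier of Mpc1 and Mpc2. Mpc2 lay at 4.78 to 5.40 in WT and 5.20 to 5.66 in AMPK KO, with a log2 difference of 0.49 (95% interval 0.013 to 0.98, adjusted p = 0.222 in limma), and Mpc1 differed by 0.37 (adjusted p = 0.548 in limma). Each overlapped between the groups, but their summed CPM did not, at 34.8 to 52.8 in WT and 56.5 to 66.1 in AMPK KO (exact permutation p = 0.1, the smallest possible). For Mpc1, 30.8% of the windows lie in a gene on the opposite strand.

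The pyruvate dehydrogenase complex turns pyruvate into acetyl-CoA, and the PDK kinases switch it off. Pdhb, the β chain of its first enzyme, had log2 values of 6.12, 6.18 and 6.16 in WT and 6.64, 6.41 and 6.43 in AMPK KO. The groups did not overlap, and the log2 difference of 0.34 (95% interval 0.0086 to 0.67) had an adjusted p of 0.222 in limma. Its partner Pdha1, the α chain, ranged from 6.59 to 7.18, and Dlat, the acetyltransferase, ranged from 2.72 to 4.34, both with overlapping groups. Pdk1 had log2 values of 5.65, 5.67 and 5.08 in WT and 5.61, 4.88 and 5.57 in AMPK KO. One library of each group lay lower than the rest, and the log2 difference was -0.11 (95% interval -0.62 to 0.40, adjusted p = 0.833 in limma). Pdk2 differed by -0.52 and Pdk3 by 0.31, with adjusted p of 0.540 and 0.483 in limma. No kinase or subunit of the complex passed the threshold.

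Summed over all members, the level was 1494 ± 65.0 CPM in WT and 1646 ± 206 CPM in AMPK KO (SD, n = 3 in each group), a ratio of 1.10 with overlapping groups (exact permutation p = 0.3). Without AMPK KO 2 the ratio was 1.02. Of the 14 separate steps, the sums of 4 did not overlap, and all 4 were higher. Of all tested genes, 11.6% lay higher without overlap and 25.6% did not overlap in either direction. The 4 were PFKFB, aldolase, lactate dehydrogenase and the pyruvate carrier, at ratios of AMPK KO over WT of 1.23, 1.43, 1.42 and 1.38. Each was at the smallest permutation p possible (exact, 0.1, not adjusted). The sums of aldolase and lactate dehydrogenase largely restate Aldoa and Ldha. Of the 6 members with the highest counted levels, Gpi1, Pkm, Pdha1 and Pfkp had overlapping groups, whereas Aldoa and Ldha did not. Of all tested genes, 11.6% lay higher without overlap. Most of the 3′ ends of Pfkp, Gapdh and Eno1 also occur in other genes, so this ranking and the sums that include them are uncertain.

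Genes around the pathway were counted in the same way. Of 48 side-branch genes and paralogs of glycolysis, 34 were tested and 1 passed, Adpgk, an ADP-dependent glucokinase. Adpgk had log2 values of 1.39, 3.41 and 2.28 in WT and 4.46, 3.31 and 4.83 in AMPK KO, with a log2 difference of 1.84 (SE 0.49, adjusted p = 0.0394 in limma), although WT 2 lay above AMPK KO 2. The median log2 difference of these 34 was 0.091. None of the 6 tested genes of the pyruvate dehydrogenase complex and its regulators outside the members passed in limma, with 2 higher and 0 lower at an unadjusted p of 0.05. Their median was -0.067, although their summed CPM was 94.3 to 107 in WT and 122 to 131 in AMPK KO. None of 19 tested regulators of glycolytic genes, such as Hif1a and Myc, passed, with a median of -0.13, and at an unadjusted p of 0.05 in limma 1 was lower and 0 were higher. Among 20 tested targets of HIF-1 outside glycolysis 1 passed, Narf, with log2 values of 4.21, 3.86 and 4.15 in WT and 3.12, 2.52 and 2.92 in AMPK KO and a difference of -1.22 (adjusted p = 0.0322 in limma). The median of these 20 was 0.084. These counts of 0 or 1 in a list stand beside 5.65% of all tested genes.

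Genes that mark stimulation passed the threshold in both directions. Of 19 tested early activation genes, 2 passed as higher, Ifng by 1.70 and Tnfrsf9 by 0.72, and 3 passed as lower, Cd40lg by -1.76, Egr3 by -1.34 and Egr1 by -0.76, with a median of -0.18. Of all tested genes, 2.54% passed as higher and 3.10% as lower. Without overlap, 7 of the 19 were lower and 3 higher, against 14.0% and 11.6% of all tested genes. The summed CPM of the early activation list was 3375 to 3767 in WT and 2857 to 3099.9 in AMPK KO. T cell markers had 1 higher and 4 lower of 15 tested by the threshold, against 2.54% and 3.10% of all tested genes. Their median was -0.31, with a summed CPM of 3578 to 3741 in WT and 2961 to 3402 in AMPK KO. Cd3e lay at 7.31 to 7.38 in WT and 6.50 to 6.94 in AMPK KO. Other cell type markers had medians of 1.11 for macrophages and monocytes, -0.52 for neutrophils, 0.15 for B and plasma cells, 0.041 for erythroid cells, 1.16 for platelets from 7 tested genes, and 0.38 for CD8 T and NK cells. By the threshold, 2 of 12 neutrophil markers were lower. In each of the lists of B and plasma cells (15 tested), erythroid cells (11), platelets (7), and CD8 T and NK cells (11), 1 marker was higher. The erythroid marker was Tfrc, and 1 platelet marker was lower. Of all tested genes, 2.54% passed as higher and 3.10% as lower. Summed CPM lay above WT for B and plasma cell markers, at 458 to 494 in WT and 748 to 875 in AMPK KO. It also lay above WT for CD8 T and NK cell markers, at 355 to 472 in WT and 529 to 598 in AMPK KO. It lay lower for neutrophil markers, at 805 to 920 in WT and 533 to 772 in AMPK KO. Erythroid markers summed to 4044 to 4649 in WT and 2983 to 5654 in AMPK KO, with overlapping groups. Platelet markers summed to 58.8 to 68.4 in WT and 51.2 to 68.5 in AMPK KO, with Gp6 at 0. The part of these differences in cell makeup in the values of the members was not tested.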

How the data were processed

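RNA of 3 WT and 3 AMPK KO samples of stimulated CD4 T cells was sequenced from its 3′ ends (Lexogen QuantSeq, 500 ng of total RNA, by the company Ebiogen). The authors scaled the reads by TMM, expressed them as CPM and added 1, and these log2 values were deposited by gene symbol. The submitters' processing notes name Bowtie2, bedtools and the build mm10. The annotation, the strand setting and the handling of reads with several matches are not given in the sources used here. Groups and replicate numbers were taken from the labels, and each member symbol was listed once, although 35 other symbols stood on 79 lines.

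The deposited values were not changed. A filter kept 11279 genes whose mean was 1 or more, and these were tested with lmFit and eBayes (trend) of limma 3.58.1 in R 4.3.3, genotype only, two-sided, with Benjamini-Hochberg adjustment over all tested genes and a threshold of 0.05. Intervals cover 95% under this model. For single values a permutation test, exact and two-sided, was added, which cannot go below 0.1 with 3 against 3. Shares and sums used CPM on the linear scale. Values up to 100 reads were whole multiples of 1 step in each library (100% within 0.1 read), so reads were recovered, and limma voom on them called 539 genes. Read intervals and p-values cover the spread between these samples only. Scripts were tested on simulated data.

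Transcript ends (500 bases, in windows of 50 bases every 5 bases) were compared with all transcripts of GENCODE M21, and member coordinates are from that annotation. Promoter sequences are from RefSeq (GRCm38.p6), and Slc2a3 had none in the table used.

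The members and lists were chosen with earlier results of these data known. The genes named are all members, with values in every sample for Prkaa1, for members past the threshold or without overlap, and for Slc2a1, Slc2a3, Hk2, Pfkp, Pfkfb3, Pkm, Ldha, Slc16a3 and Pdk1, at steps held to set the flux. Of other lists, at most 5 genes past the threshold are named, by size of change. Csf1r, Cd4, Cd8a, Cd3e, Xist, Ddx3y and Eno1b were singled out after their values were seen. Alternatives were quantile normalisation, no filter or a filter of 3, pseudocounts of 0.25 and 4, scaling outside Rn45s, voom, a robust spread, a replicate block, leaving out each library, and, chosen after seeing the data, a correction for GC content (loess, span 0.5). Tables and plots were made in Python 3.11.15 (pandas 2.3.3, numpy 2.4.6, matplotlib 3.10.9, scipy 1.17.1).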

Additional observations from a re-analysis of the deposited data

How the results depend on the processing

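Of the 35 tested members, 25 kept their direction under every alternative, and the 10 that turned had log2 differences of at most 0.44 in size. Ldha had an adjusted p of 0.0505 without a filter, 0.0559 with scaling outside Rn45s and 0.0299 to 0.152 with a library left out. Slc2a1 passed in 4 of 16 alternatives, among them a filter of 3 (0.0478) and a robust spread (0.0429). In limma, the count of passing members was 0 without a filter, with scaling outside Rn45s and with the replicate block, 2 with a filter of 3 or a robust spread (Slc2a1 and Ldha), and 0 to 3 with a library left out. It was 0 without WT 1, WT 3, AMPK KO 1 or AMPK KO 3, 1 without WT 2 (Slc2a1, not Ldha) and 3 without AMPK KO 2 (Slc2a1, Ldha and Hk3, of which Hk3 passed the filter only through AMPK KO and is no evidence, which leaves 2). Over all genes, 637 passed, against 308 without a filter, which tests more genes, and 127 to 1246 with a library left out, which fits fewer samples. These were 127 without WT 1, 140 without WT 3, 172 without AMPK KO 1 and 1246 without AMPK KO 2, and the cause of the differences between libraries was not tested. With scaling outside Rn45s, the share of higher genes among those that passed was 32.5%, against 45.1%. This share was 53.5% to 55.9% without WT 1, WT 2, WT 3 or AMPK KO 2, and 41.9% and 42% without AMPK KO 1 and AMPK KO 3. The replicate block gave 102 genes and an adjusted p of 0.158 for Ldha and 0.188 for Slc2a1. Deviations of samples with the same number correlated at -0.0822, -0.321 and -0.155, so the numbers were not taken to pair samples.

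The log2 difference turned to 0.039 for Pdha1 with quantile normalisation, to -0.054, -0.023 and -0.040 for Pfkp, Pgam1 and Pkm with scaling outside Rn45s, and to -0.0065, -0.022 and -0.0075 for the same genes with the GC correction. With a library left out it ranged from -0.17 to 0.81 for Pfkm, -0.20 to 0.10 for Pdha1, -0.13 to 0.12 for Pfkp, -0.19 to 0.22 for Pgam1, -0.16 to 0.18 for Pkm, -0.25 to 0.87 for Pfkfb4, -0.14 to 1.01 for Pfkfb1, -0.26 to 0.68 for Eno3, -0.30 to 0.13 for Pdk1 and -0.55 to 0.0495 for Pfkl. The ratio of summed levels, 1.10, was 1.05 with scaling outside Rn45s and 1.02 to 1.16 with a library left out. Members with under 50 reads in a library, such as Hk3, Aldoc, Eno2, Pfkm and Pfkfb1, are limited by counting.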
